A study of Homo sapiens with 26 samples.

Results

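Ribosomes translating close to the outer mitochondrial membrane (OMM) were compared directly with ribosomes labelled by a biotin ligase that has no membrane anchor. For each gene, the log2 ratio of pulldown over total input from the untargeted ligase was subtracted from the same ratio from the OMM-anchored ligase. The members are the 6465 of 57770 single-gene entries that had at least 64 footprints on the coding sequence in all 4 total inputs, and the question is which genes enriched at the OMM remain so once the untargeted ligase is the reference. The contrast uses 8 of the 26 samples of the series. The study profiled local translation at the OMM and at the endoplasmic reticulum (ER) in HEK293T cells, a human embryonic kidney line, by LOCL-TL, in which light switches on a ligase that biotinylates tagged ribosomes in its reach. Biotinylated ribosomes were then captured on streptavidin, and their footprints were sequenced beside those of the whole lysate.

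Both groups were HEK293T cells with an Avi tag, the peptide that BirA biotinylates, on a ribosomal protein. The study's methods describe monoclonal lines with the tag knocked in at RPL29, a large-subunit protein, but the labels of these 8 samples do not name the tagged subunit. The ligase, LOV-BirA under an EF1α promoter, was added by lentivirus and sorted as a polyclonal line. In the mito group LOV-BirA was anchored in the OMM by the tail of OMP25, and in the cytosol group it was free in the cytosol. Both groups received cycloheximide (CHX, 100 ug/mL), biotin (50 uM) and blue light for 10 min, and each holds 2 lysates with a total input and a pulldown from each. Because CHX was present during labelling, ribosomes were held on their mRNA while they were marked. The p-values measure only the spread between lysates, estimated over these and the 2 lysates of the ER group, which share the fit.

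Most mitochondrial proteins are encoded in the nucleus, made on cytosolic ribosomes and imported through the TOM complex of the OMM and the TIM complexes of the inner membrane. Many carry a cleavable N-terminal presequence, which can engage the import machinery while the chain is still being made. A ligase free in the cytosol can also reach cytosolic ribosomes away from the OMM. Its pulldown serves here as a reference for how readily each mRNA's ribosomes are labelled and recovered. Whether it reaches all cytosolic ribosomes evenly was not tested.

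The total inputs held 4485509 to 15820989 footprints on coding sequences, and the pulldowns 1025114 to 12335749, the shallowest being mito replicate 1. The marker check met 1 library pair that stood apart. In cytosol replicate 2, RPL10A reached 1932 CPM (counts scaled to each library's total) in the total input against 538 to 800 in the other total inputs, and NEFM reached 432 against 67.2 to 99.5. KRT8 was at 25.2 against 2.3 to 4.9, whereas VIM was lower, at 1521 against 2217 to 3628. The study's methods also describe cells with a lentiviral Avi-RPL10A, and the part of this in the results was not tested. Without this lysate 1076 genes were higher and 2617 lower, and 862 of the 921 genes that remained enriched in all lysates were still among the 921 that did so. ALB was at 0 in every library, and the leukocyte gene PTPRC had 1 footprint, in mito total input 1. The kidney-lineage genes PAX2 (4.0 to 8.0 CPM) and LHX1 (0.4 to 1.1) were detected in every total input. LHX1 rests on only 2 to 15 footprints per total input.

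With the cytosolic ligase as the reference, footprints of 1069 genes (16.5% of those tested) were higher at the OMM and those of 2583 (40.0%) were lower at an adjusted p below 0.05 in edgeR's quasi-likelihood test. A difference above 1 on the log2 scale was reached by 503 of the higher genes (7.78%), and 784 genes (12.1%) were lower by more than 1. The median difference over all genes was −0.36 when libraries were scaled to their totals. With TMM scaling the median was 0.00 and the split was 1672 higher and 1222 lower, so the balance of higher against lower genes depends on the scaling. Medians and calls are given against 0, and each lies 0.36 higher when read against the median of all genes. All 1069 higher genes were also higher with TMM, and 756 of them, with 681 of the 921 remaining genes, when libraries were scaled by the reads behind the deposited RPKM. The difference between the mito lysates had an SD over genes of 0.380 and that between the cytosol lysates 0.340. The median SE of the contrast was 0.204. Enrichments of replicates 1 and 2 correlated at r = 0.87 across 6460 genes in the mito group and at r = 0.55 in the cytosol group. In 1067 of the 1069 higher genes both mito lysates lay above both cytosol lysates, a pattern that 22.9% of all genes showed.

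**Figure D1:**
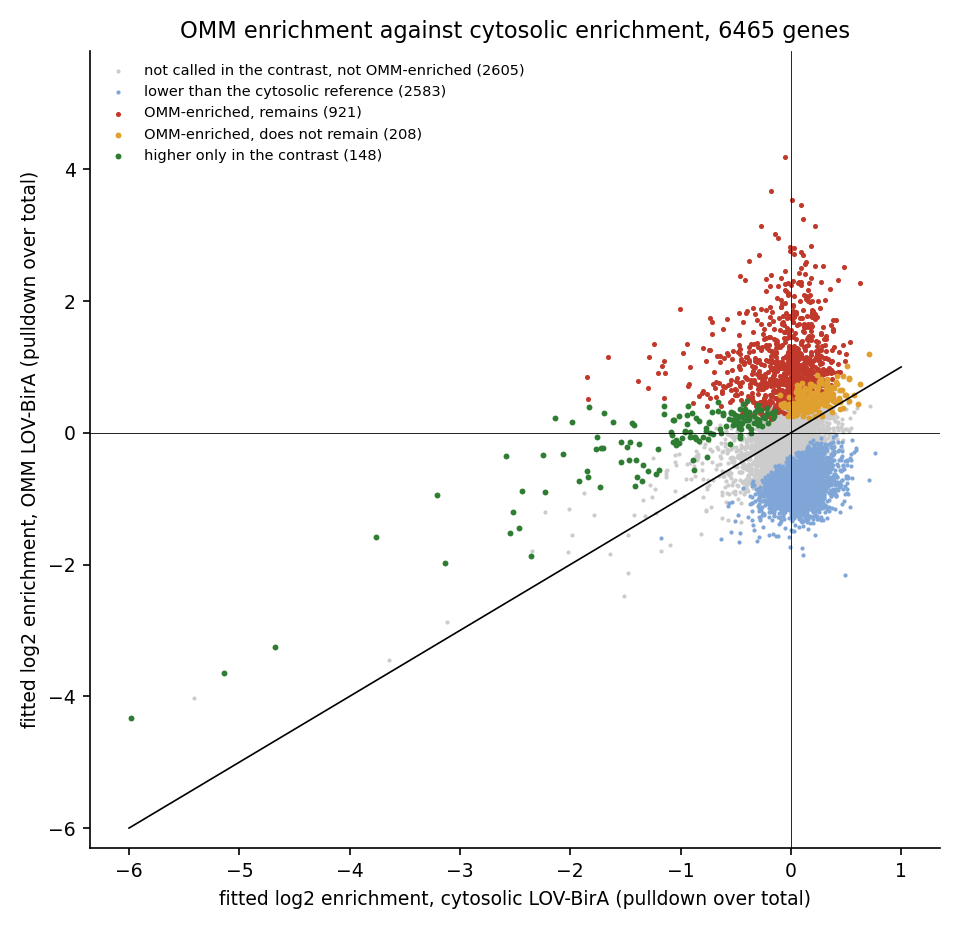
Fitted enrichment at the OMM (vertical axis) against that by the cytosolic ligase (horizontal axis), both as log2 of pulldown over total input, with 1 point per gene, coloured by call, and a diagonal where both are equal. The 921 genes that remained spread upwards to 4.19, while the 148 genes that were higher only in the contrast lie mostly to the left, at cytosolic values below 0.

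The largest rise was that of ALDH18A1 (ENSG00000059573, GRCh38 chr10:95605941-95656711), the mitochondrial enzyme that opens proline synthesis from glutamate. Its log2 pulldown over total input was 4.20 and 4.17 in the mito lysates and −0.00 and −0.11 in the cytosol lysates, on 3517 and 8673 footprints in the mito pulldowns. The groups lay far apart, with a difference of 4.24 ± 0.13 (SE, n = 2 lysates per group, adjusted p = 2.3e-12, edgeR).

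GFM2 (chr5:74721206-74767147), a recycling factor of the mitochondrial ribosome, followed with 3.58 and 3.74 in the mito lysates against −0.26 and −0.09 in the cytosol lysates. IARS2, the mitochondrial isoleucyl-tRNA synthetase, had 3.60 and 3.47 against −0.01 and 0.03. Their differences were 3.85 ± 0.17 and 3.53 ± 0.13 (SE), and in both genes the cytosol lysates were near 0 and the mito lysates did not overlap them.

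GPAM, an acyltransferase of the OMM that starts glycerolipid synthesis, had 3.09 and 3.18 in the mito and −0.37 and −0.14 in the cytosol lysates, a difference of 3.41. GUF1, a GTPase of mitochondrial translation, was less even between the mito lysates, at 3.06 and 3.79 against −0.00 and 0.22, and differed by 3.36 ± 0.23 (SE). OXCT1, which breaks down ketone bodies, and PMPCA, the α subunit of the peptidase that removes presequences, differed by 3.17 and 3.14. In all 4 the cytosol lysates lay between −0.37 and 0.22, so that the contrast moved little from the OMM enrichment itself.

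EXD2, AASS and RSPRY1 completed the 10 largest rises, of which all but RSPRY1 were in nuclear-encoded mitochondrial genes. EXD2, an exonuclease-domain protein anchored in the OMM, differed by 3.07 and was also enriched at the ER, by 1.70. AASS, the first enzyme of lysine breakdown, had 2.81 and 2.47 in the mito and −0.44 and −0.32 in the cytosol lysates, a difference of 2.99. RSPRY1, a protein with a RING and a SPRY domain, had the same difference of 2.99, from 2.78 and 2.62 against −0.24 and −0.35.

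**Figure D2:**
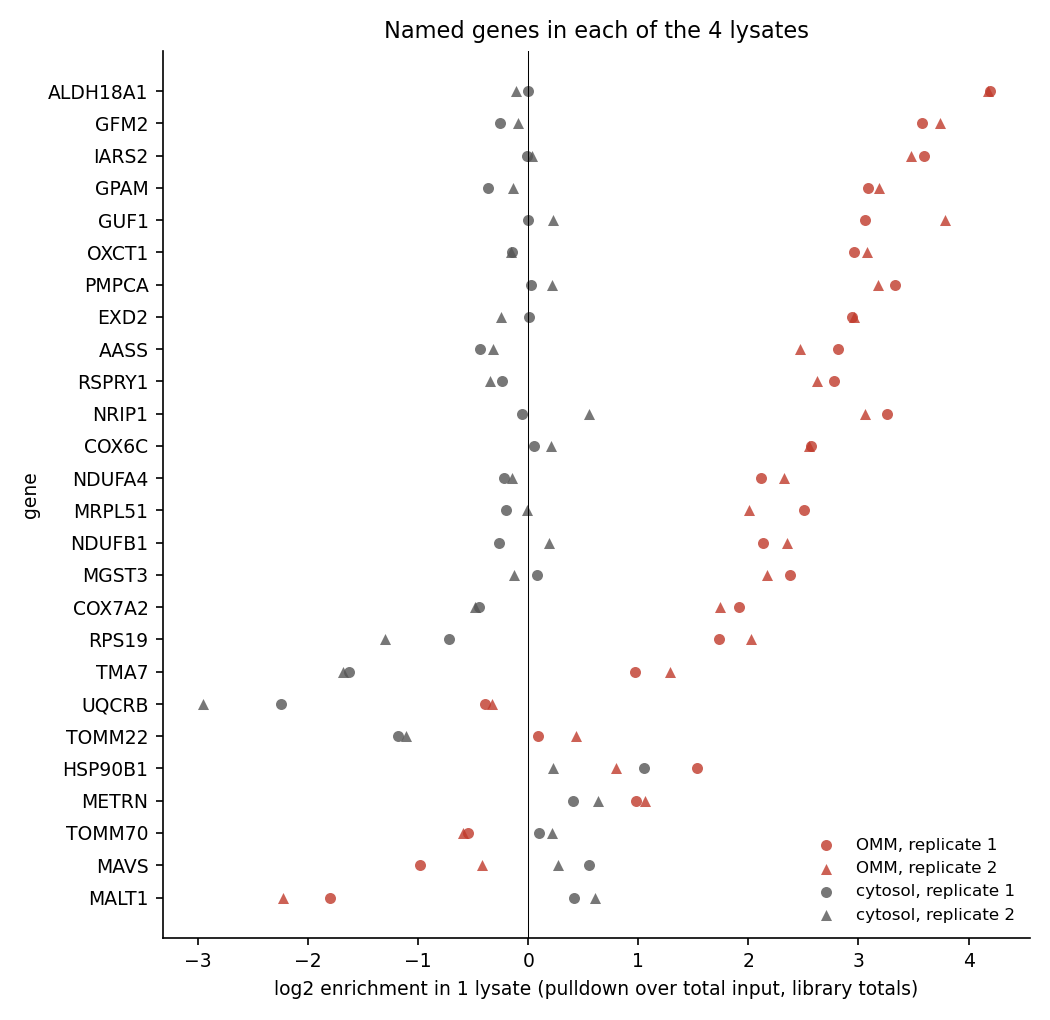
Log2 pulldown over total input (horizontal axis) of 26 named genes (vertical axis), with mito lysates in red, cytosol lysates in grey, replicate 1 as circles and replicate 2 as triangles. The mito lysates of ALDH18A1 nearly coincide, at 4.20 and 4.17, and of the genes shown HSP90B1 is the one whose groups overlap.

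Of the 1129 genes enriched at the OMM over their total input (17.5% of those tested), 921 (81.6%) remained higher against the cytosolic ligase, which is 14.2% of all genes tested. The other 208 did not pass the test, although 201 of them had a positive difference, 41 were higher at an unadjusted p below 0.05 and 0 were called lower. The contrast contains the OMM enrichment, so a larger enrichment gives a larger contrast in large part by construction. The share that remained was greater for larger OMM enrichments. It was 91 of 199 genes (45.7%) with an enrichment of up to 0.5, 428 of 526 (81.4%) between 0.5 and 1, 336 of 338 between 1 and 2, and 66 of 66 above 2.

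HSP90B1, the HSP90 chaperone of the ER, and METRN, a secreted factor, were the 2 genes with an enrichment above 1 that did not remain. HSP90B1 had 1.54 and 0.80 in the mito lysates but also 1.05 and 0.22 in the cytosol lysates, which overlap, and a difference of 0.49 (adjusted p = 0.16, edgeR). METRN had 0.98 and 1.06 against 0.41 and 0.63, with a difference of 0.50 (adjusted p = 0.094, edgeR). HSF1, the heat shock transcription factor, GDE1, a membrane phosphodiesterase, and QPCTL, a glutaminyl cyclase of the Golgi, came next, with OMM enrichments of 0.88, 0.87 and 0.86 and differences of 0.64, 0.39 and 0.45. Of these 5 genes, HSP90B1, METRN, GDE1 and QPCTL had an ER enrichment above 1, between 1.13 and 1.74, and HSF1 had −0.51.

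Gene classes were compared next, as a description. Among the 666 tested of 1060 listed nuclear-encoded mitochondrial genes, 320 were OMM-enriched and 281 of them (87.8%) remained, including 155 of 155 with an OMM enrichment above 1. Among 1677 other genes whose protein has a hydrophobic stretch of 19 residues, a proxy for signal sequences and membrane spans that also takes in some soluble proteins, 280 were OMM-enriched and 199 (71.1%) remained. Of the 4117 genes left, 529 were OMM-enriched and 441 (83.4%) remained. ER enrichment was shown by 19.5% of all genes and by 996 (59.4%) of the 1677 genes with a hydrophobic stretch. Among the OMM-enriched genes of this class it was found in 170 of the 199 that remained and in 71 of the 81 that did not. Nuclear-encoded mitochondrial genes made up 10.3% of the genes tested, 30.5% of those that remained and 33.4% of those above 1 in the contrast, which leaves 640 remaining genes outside this class.

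Nuclear-encoded mitochondrial genes had a median difference of 0.34, which lies 0.69 above that of all genes. In this class 298 of 666 (44.7%) were higher against 16.5% of all genes, 62 were lower against 40.0%, and 168 (25.2%) were higher by more than 1. The 62 became 14 with TMM and 33 without mito replicate 2. The subunits of the respiratory chain were the most uniform. All 8 tested subunits of complex IV, cytochrome c oxidase, were higher with a median of 2.20, and 6 of 7 subunits of complex III were higher with a median of 1.63. Complex I had 21 of 25 higher with a median of 1.28 and complex V, the ATP synthase, 12 of 15 with a median of 1.20, and no subunit of these 4 complexes was called lower.

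COX6C, a complex IV subunit, had 2.57 and 2.55 in the mito lysates against 0.05 and 0.20 in the cytosol lysates and a difference of 2.43 ± 0.12 (SE). NDUFA4, a small subunit counted with the respiratory chain, had 2.12 and 2.32 against −0.22 and −0.15, a difference of 2.41. COX7A2 and NDUFA1 differed by 2.29 and 2.23 and were both below 0 in the cytosol lysates, COX7A2 at −0.45 and −0.49 and NDUFA1 at −0.39 and −0.43. The subunits COX5B, UQCRQ and ATP5MC1, of complexes IV, III and V, rose by 2.18, 2.21 and 2.13. NDUFB1 of complex I differed by 2.31, and the assembly factors FMC1, of complex V, and COX14, of complex IV, by 2.23 and 1.93. In all of these genes the mito lysates stood above 1.6 and the cytosol lysates did not reach them.

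Of 43 tested assembly factors of oxidative phosphorylation, 23 were higher and 1 was lower, with a median of 0.69. The mitochondrial gene expression machinery was mixed by role. Translation factors (7 of 10 higher, median 1.52) and mitochondrial tRNA synthetases (11 of 15, median 0.97) moved most, and mitochondrial ribosomal proteins were higher in 38 of 66 and lower in 3, with a median of 0.56. In mitochondrial RNA metabolism 20 of 56 were higher and 5 lower (median 0.09), and in mtDNA maintenance 4 of 17 were higher and 4 lower (median −0.26, and 0.10 with TMM). MRPL51, a protein of the large mitoribosomal subunit, rose by 2.34, PTCD3, which binds the small subunit, by 2.69 and METTL17, a factor of mitoribosome assembly, by 2.65. AARS2, the alanyl-tRNA synthetase, rose by 2.52, the initiation factor MTIF2 by 2.45, the RNA-binding protein FASTKD2 by 2.56 and the RNA polymerase POLRMT by 2.39. SSBP1, which binds single-stranded mtDNA, rose by 1.09.

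Metabolic groups were less complete. In the tricarboxylic acid cycle group 9 of 24 were higher and 1 lower (median 0.21), in branched-chain amino acid breakdown 5 of 18 were higher and 0 lower at the adjusted threshold (median 0.19), and in fatty acid oxidation 7 of 15 were higher and 1 lower (median 0.42). Iron-sulfur cluster genes were higher in 10 of 15 and lower in 1 (median 0.70), and folate and 1-carbon genes were higher in 6 of 10 and lower in 1 (median 0.55), but in 1 without mito replicate 2 and in 3 without cytosol replicate 2. Coenzyme Q genes had 2 of 11 higher and 2 lower (median −0.15, and 0.21 with TMM). HADHB of fatty acid oxidation had 2.68 and 2.71 in the mito lysates against −0.01 and 0.24, a difference of 2.59. PCCB, a subunit of propionyl-CoA carboxylase, rose by 2.58, SUCLG2 of succinyl-CoA ligase by 2.20, PDK1, the kinase of pyruvate dehydrogenase, by 1.90, and DLD, the shared E3 subunit of the 2-oxoacid dehydrogenases, by 1.76. BOLA3, a maturation factor of the iron-sulfur pathway, rose by 1.58.

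Of the import machinery, TIM and presequence-cleaving proteins were higher in 11 of 16 and lower in 0 at the adjusted threshold (median 0.46), with 7 higher without either mito replicate, and TOM proteins in 2 of 6 with 1 lower (median 0.17). MIPEP, an intermediate peptidase of the matrix, rose by 2.45, OXA1L, the inner membrane insertase, by 2.84, and TIMM10, a small chaperone of the intermembrane space, by 1.63. TOMM7, a small subunit of the TOM pore, rose by 2.15. The receptor TOMM70 was lower, with −0.55 and −0.60 in the mito and 0.09 and 0.21 in the cytosol lysates and a difference of −0.73. Chaperones had 4 of 11 higher and 2 lower (median 0.19), with TRAP1, the mitochondrial HSP90, at 1.79, and proteases 7 of 20 higher and 1 lower (median 0.23). Genes of apoptosis and autophagy had 8 of 27 higher and 5 lower (median 0.11). Genes of fission and fusion were higher in 6 of 12 and lower in 2 (median 0.33), with the fission receptor FIS1 at 1.35. The carriers of the SLC25 family were higher in 3 of 21 and lower in 5, with a median of −0.01. With TMM 6 were higher, 0 were lower at the adjusted threshold and the median was 0.34.

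**Figure D3:**
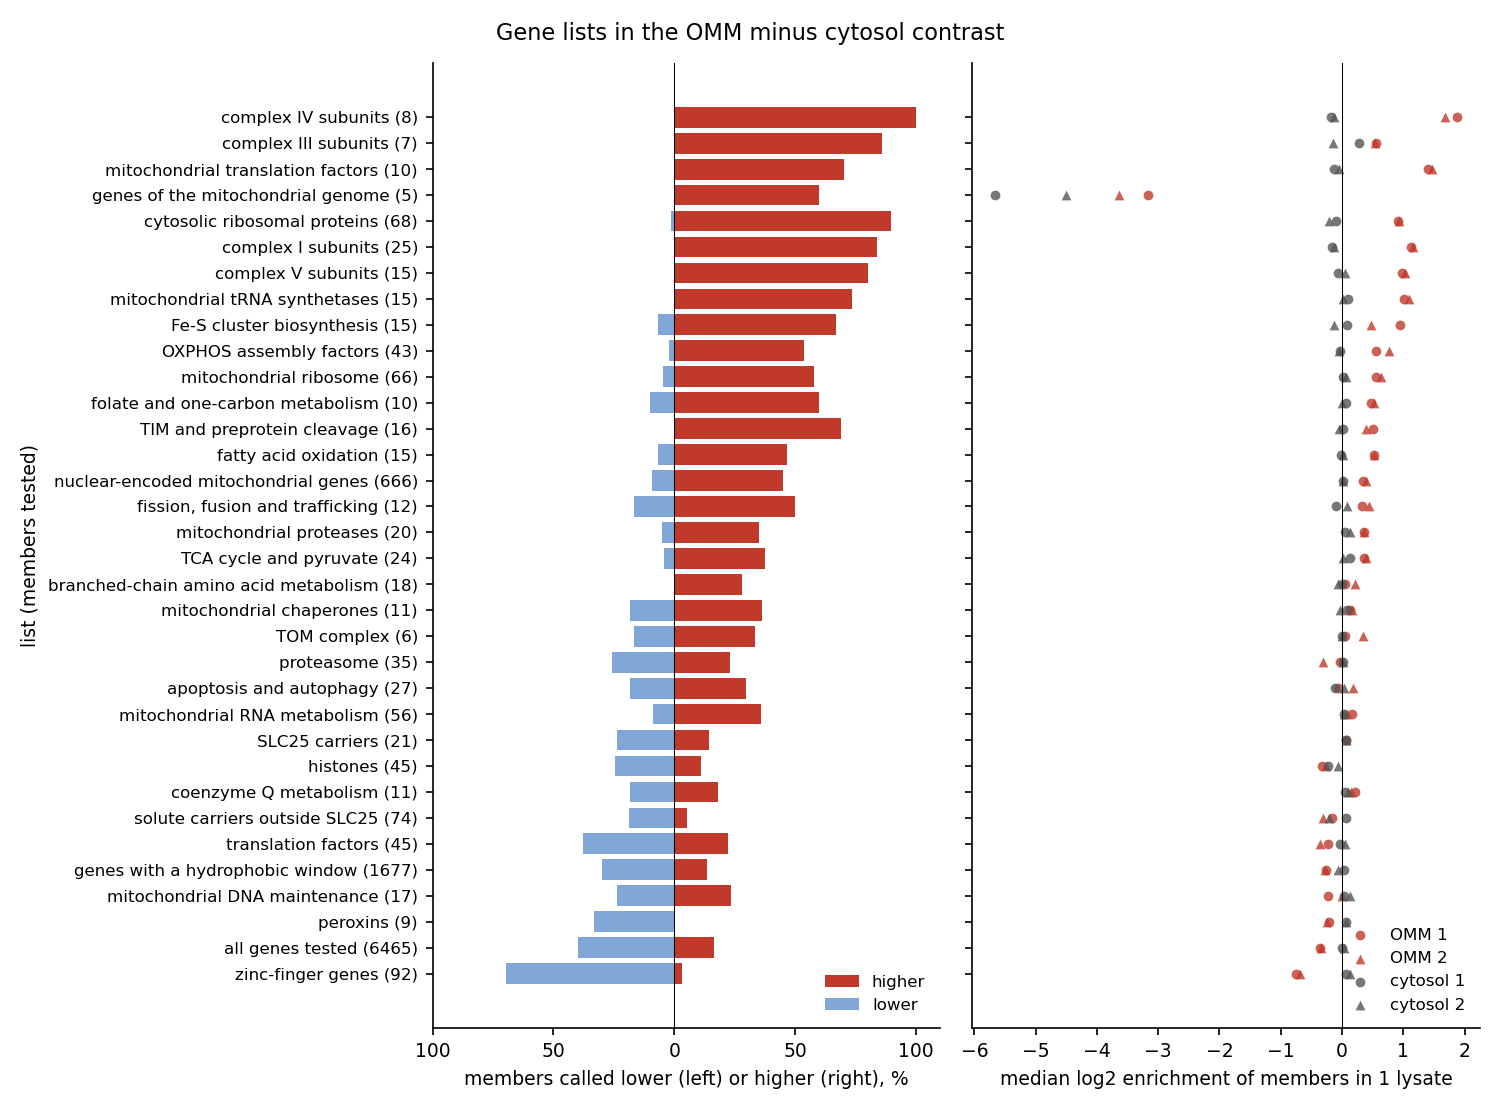
Gene lists ordered by their median difference, with the share of tested members called higher or lower in the contrast as bars (left, percent) and the median log2 enrichment of the members in each of the 4 lysates as points (right). All 8 complex IV subunits are called higher, whereas the zinc finger genes, with a median difference of −0.87, have the largest share called lower.

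By compartment, the inner membrane had 109 of 190 genes higher and 12 lower (median 0.60), the intermembrane space 18 of 36 higher and 4 lower (median 0.38), the matrix 140 of 341 higher and 30 lower (median 0.24), and the outer membrane 18 of 55 higher and 10 lower (median 0.16). The OMM scaffold AKAP1, which binds RNA and protein kinase A, had 2.25 and 2.37 in the mito lysates against 0.09 and −0.07, and a difference of 2.29. It was enriched at the ER as well, by 1.81. LETM1, an ion exchanger of the inner membrane, rose by 2.83, and MGST3, a membrane glutathione transferase, by 2.30. The RNA helicase SUPV3L1 (−0.22, adjusted p = 0.27, edgeR) and TBRG4 (−0.27, adjusted p = 0.12, edgeR), which regulates mitochondrial RNA, did not pass the test, and LARP4, an RNA-binding protein, was lower by more than 1 (−1.24). LARP4 was not called when footprints in all exons were counted (−0.13).

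Among nuclear-encoded mitochondrial genes the median contrast was higher below 200 and above 400 residues than between them, though above 800 residues it was only 0.07. Below 200 residues 135 of 168 genes were higher and 1 was lower, with a median of 1.13. Between 200 and 400 residues 61 of 262 were higher and 27 lower (median 0.02), and above 400 residues 102 of 235 were higher and 34 lower (median 0.30). Differences above 1 were found in 96, 8 and 64 genes of these classes. In the same order, 128, 55 and 98 genes remained OMM-enriched. In the middle class the largest rises were those of GUK1, a guanylate kinase, at 1.82, ARMCX3, an OMM protein, at 1.73, PNKD, a hydrolase-like protein, at 1.30, COQ3, a methyltransferase of coenzyme Q synthesis, at 1.16, and ANTKMT, which methylates the ADP/ATP carrier, at 1.12.

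Short proteins were higher also outside the mitochondrial class. Over all tested protein-coding genes outside the mitochondrial genome, the median difference was 1.41 below 100 residues (115 of 130 higher, 0 lower), 0.60 from 100 to 199 residues (405 of 724 higher, 27 lower), −0.09 from 200 to 400, −0.51 from 401 to 800 and −0.78 above 800 (35 of 1568 higher, 1066 lower). In the genes that are neither mitochondrial nor carry a hydrophobic stretch the medians fell in the same order, from 1.25 to 0.51, −0.20, −0.67 and −0.87. In nuclear-encoded mitochondrial genes they were 1.63, 0.93, 0.02, 0.32 and 0.07, so the long genes of this class did not follow the fall seen in the others. Below 100 residues the median cytosolic enrichment was −0.23, with 47 of 130 genes depleted in the cytosolic pulldown against 6.02% of all genes, and the median OMM enrichment was 1.00. The genes that remained had a median length of 200 residues against 474 for all genes tested, and 460 of the 921 were below 200 residues.

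**Figure D4:**
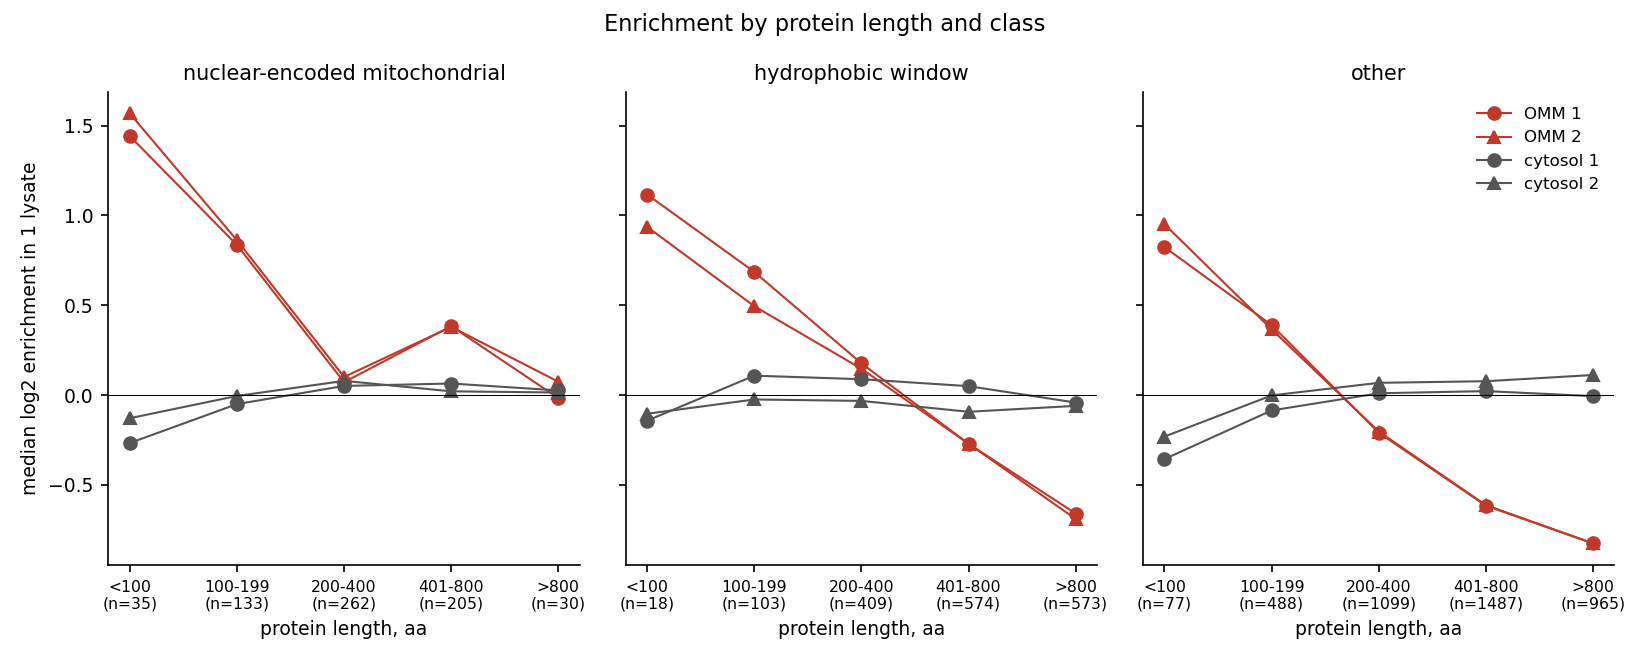
Median log2 enrichment in each of the 4 lysates (vertical axis) by protein length in residues (aa, horizontal axis), for nuclear-encoded mitochondrial genes, genes whose protein has a hydrophobic stretch, and other genes. The red OMM medians fall with length in all panels except for the mitochondrial genes of 401 to 800 residues, and the grey cytosol medians stay close to 0 apart from the shortest genes.

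A further 148 genes were higher in the contrast without being OMM-enriched over their own total input. Of these, 60 stayed higher without mito replicate 2, 94 without mito replicate 1, 80 with footprints in all exons and 72 with the RPKM reads as scale. The set was chosen by these same values, so that low cytosolic values follow from the choice, and its medians are a description: −0.78 in the cytosolic pulldown and 0.12 at the OMM. The pulldown with the ER-anchored ligase gave a median of −0.84 against −0.68 for all genes. UQCRB, a subunit of complex III, was the clearest case among the named genes. It had −0.40 and −0.33 in the mito lysates against −2.25 and −2.96 in the cytosol lysates, which gave a difference of 2.22 ± 0.24 (SE, adjusted p = 2.1e-06, edgeR), and its ER enrichment was −2.21. All 4 lysates were below 0, and the mito lysates were the less depleted. TOMM22, the central TOM receptor, had 0.09 and 0.43 against −1.18 and −1.11 and rose by 1.43. PSMD7, a proteasome lid subunit, rose by 1.31 from values near 0 at the OMM, but not when footprints in all exons were counted (0.11).

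A smaller set combined OMM enrichment with depletion by the cytosolic ligase. It held 105 of the 1129 OMM-enriched genes, while 389 of all 6465 genes (6.02%) were depleted by the cytosolic ligase. The set was chosen by these same values, so their signs follow from the choice. All 105 were below 0 in both cytosol lysates. Their medians were 0.92 for OMM enrichment, −0.57 for cytosolic enrichment and 117 residues in length. CHCHD7, a small protein with a twin cysteine motif, had 0.76 and 1.18 in the mito lysates against −0.73 and −1.15, a difference of 1.91. OXA1L (−0.37 and −0.59 in the cytosol lysates) and COX7A2 were also among the 105. Conversely, 42 of the 1129 were enriched in both pulldowns, against 142 of all genes (2.20%) enriched by the cytosolic ligase. Of these 42 genes, 22 remained in the contrast.

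After RSPRY1, the largest rises outside the mitochondrial class were in the nuclear receptor corepressor NRIP1, the ribosomal protein RPS19, the translation-associated protein TMA7 and the γ-tubulin complex protein MZT2A. NRIP1 had 3.26 and 3.06 in the mito lysates and −0.06 and 0.55 in the cytosol lysates, a difference of 2.93 on a protein of 1158 residues. TMA7, of 64 residues, had 0.97 and 1.29 against −1.63 and −1.68 and differed by 2.81. For NRIP1 the difference lay at the OMM, whereas for TMA7 the larger part of it lay in the cytosolic depletion. MZT2A (2.78) and its paralog MZT2B (2.66) are near-identical copies, so the share of footprints of each is uncertain.

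Cytosolic ribosomal protein genes were higher in 61 of 68 and lower in 1, with a median of 1.35, and 44 were higher by more than 1. RPS19 had 1.73 and 2.03 in the mito and −0.72 and −1.30 in the cytosol lysates, a difference of 2.88, and RPL23A had 2.30 and 2.33 against −0.14 and −0.71, a difference of 2.73. In 26 of the 68 the cytosolic pulldown was depleted. RPL29, the subunit that the study's methods tag, was among the smaller rises, with 0.41 and 0.21 against −0.45 and −0.43 and a difference of 0.74 ± 0.15 (SE, adjusted p = 0.00086, edgeR). These genes have many processed pseudogenes, with which unique footprints cannot always be placed, and without cytosol replicate 2 the count was 62. Other cytosolic groups depended on the scaling. Proteasome subunits had 8 of 35 higher and 9 lower (median 0.14), and 20 and 4 with TMM (median 0.49). Translation factors had 10 of 45 higher and 17 lower (median −0.23), and 16 and 10 with TMM (median 0.13). Histones had 5 of 45 higher and 11 lower (median −0.13), and 16 and 1 with TMM (median 0.23). Among proteins with a hydrophobic stretch 223 of 1677 were higher and 505 lower (median −0.23), and 432 and 231 with TMM (median 0.13), with SEC61B, a subunit of the ER translocon, at 1.66. The solute carriers outside SLC25 were higher in 4 of 74 and lower in 14 (median −0.18), and in 14 and 1 with TMM (median 0.18), and 3 to 25 were lower on leaving out 1 lysate. SLC35B1 of this group rose by 1.12.

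The falls were smaller than the rises. MALT1, a protease of lymphocyte signalling, fell the most, with −1.80 and −2.23 in the mito lysates against 0.42 and 0.61 in the cytosol lysates and a difference of −2.65 ± 0.35 (SE, adjusted p = 1.9e-05, edgeR), on 6 and 11 footprints in the mito pulldowns. The kinase MAST3 (−1.96), the nuclear receptor coactivator NCOA7 (−1.85), the RNA-editing enzyme ADARB1 (−1.77) and the zinc finger protein ZFP37 (−1.72) followed, and in each the mito lysates lay below the cytosol lysates without overlap, as in 54.1% of all genes. ZFP37 had 0 footprints in mito pulldown 1, so its value of −4.88 there rests on the pseudocount. MAST3 lost its call without mito replicate 2 (−1.30). Zinc finger genes were lower as a group, with 64 of 92 lower and 3 higher and a median of −0.87, against 40.0% lower in all genes. With TMM scaling 36 were lower, 4 were higher and the median was −0.52, and without mito replicate 2 37 were lower.

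Of the 62 lower nuclear-encoded mitochondrial genes, the largest falls were in CROT, a carnitine acyltransferase of peroxisomes (−1.24), AHCYL1, a regulator of the ER calcium channel (−1.18), the DNA helicase RECQL4 (−1.17), the deadenylase-like phosphatase NOCT (−1.15) and MAVS, the tail-anchored antiviral adaptor (−1.08). CROT, AHCYL1 and RECQL4 work mainly or partly in other compartments. Peroxins, the assembly factors of peroxisomes, had 3 of 9 lower and 0 higher at the adjusted threshold, but 3 higher and 0 lower with TMM.

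The 5 tested genes of the mitochondrial genome, which are translated inside the organelle by the mitochondrial ribosome, were depleted in both pulldowns. Their OMM enrichments ran from −4.33 to −3.25 and their cytosolic ones from −5.98 to −3.64. MT-CYB (1.49, adjusted p = 0.0062, edgeR), MT-ND5 (1.66, adjusted p = 0.032, edgeR) and MT-CO3 (1.43, adjusted p = 0.030, edgeR) were less depleted in the mito lysates. These values rest on few footprints in the mito pulldowns, 15 and 42 for MT-CYB, 3 and 25 for MT-ND5 and 10 and 35 for MT-CO3. MT-ND1 (1.38, adjusted p = 0.15, edgeR), on 0 and 10 footprints, and MT-CO1 (0.19, adjusted p = 0.77, edgeR), on 1 and 8, did not pass the test. The calls of MT-ND5 and MT-CO3 were lost without either mito lysate, without cytosol replicate 1 and with DESeq2, and that of MT-CYB without mito replicate 1.

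The contrast was set beside RNA-seq of the same kind of OMM pulldown from other lysates, in which whole captured mRNAs rather than footprints were counted. The WT cells of this assay, also the reference for the null lines below, carried a negative control gRNA. Of the 6459 genes tested in both, 25.7% were OMM-enriched in these WT cells. The share was 815 of 921 (88.5%, median log2 enrichment 1.08) among the genes that remained, 151 of 208 (72.6%, median 0.58) among those that did not, and 91 of 145 (62.8%) among those higher only in the contrast. It was 600 of 5185 (11.6%) among genes in none of these sets, and 44 of the 2583 genes lower in the contrast were enriched. By RNA-seq, 26 of the 921 remaining genes were depleted. AASS, the ninth largest rise, had an RNA-seq value of −0.11. Of the other named genes that remained, DBT (−0.93), ALDH1L2 (−0.18) and ZNF638 (−0.09) were also below 0.

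The same assay in AKAP1 null cells, 1 monoclonal line, gave values that differed by length among the remaining genes. Relative to WT, 632 of all genes (9.78%) had a lower OMM enrichment in the AKAP1 null line and 677 (10.5%) a higher one at an adjusted p below 0.05 in edgeR. With TMM scaling 750 were lower and 193 higher, so the balance over all genes depends on the scaling. Among the 921 remaining genes 503 were lower and 118 higher, and 558 and 101 with TMM. Of the 503, 359 encode proteins below 200 residues, and of the 118, 107 encode proteins above 400. In nuclear-encoded mitochondrial genes that remained, 111 of 128 below 200 residues were lower and 0 were called higher (median −1.17), whereas above 400 residues 86 of 98 were higher and 2 were lower (median 1.20). Between 200 and 400 residues 24 of 55 were lower and 7 higher. With TMM scaling 118 of the remaining short genes were lower and 81 of the remaining long ones higher. The pattern was not limited to the remaining genes. Of all tested nuclear-encoded mitochondrial genes, 120 of 168 below 200 residues were lower and 0 were called higher (median −1.02). Above 400 residues 146 of 235 were higher and 4 lower (median 0.74).

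NDUFB9 of complex I (2.11 in the contrast) changed by −3.23 in the AKAP1 null line and COX6C by −2.30. ALDH18A1 rose by 1.24, GPAM by 1.67, GFM2 by 1.30 and NRIP1, which is outside the mitochondrial class, by 1.47. AKAP1 itself, the deleted gene, was at −1.02. The fall was not particular to mitochondrial genes, since 305 of the 441 remaining genes without a mitochondrial annotation or a hydrophobic stretch were lower and 17 higher, and 56 of 57 remaining ribosomal protein genes were lower. Of the 199 remaining genes with a hydrophobic stretch, 61 were lower and 8 higher. An effect of the null genotype and of the clone cannot be told apart.

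**Figure D5:**
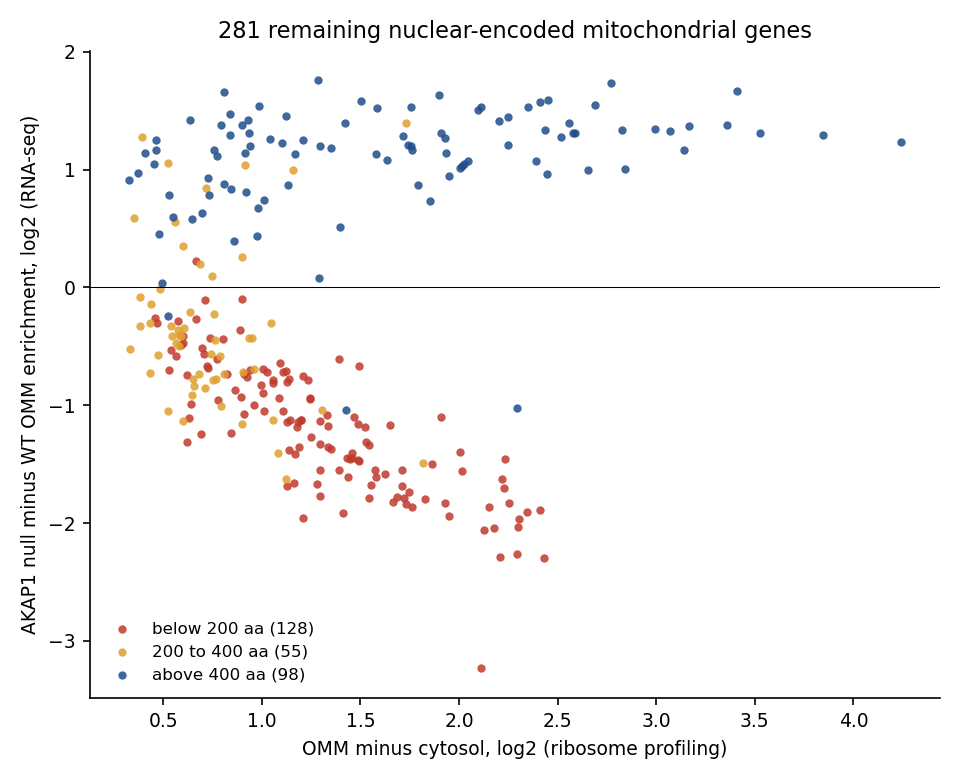
Change of OMM enrichment by RNA-seq in AKAP1 null cells relative to WT (log2, vertical axis) against the difference of OMM minus cytosolic footprint enrichment (log2, horizontal axis), for the 281 remaining nuclear-encoded mitochondrial genes, coloured by protein length. Genes below 200 residues lie mostly below 0 (median −1.17) and genes above 400 residues mostly above it (median 1.20).

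The first 30 residues of the proteins, which the rule did not use, were compared as a description. Remaining nuclear-encoded mitochondrial proteins above 400 residues had a median net charge of 4 and a median of 0 acidic residues there, as did all 235 tested of that length. Those below 200 residues had 3 and 1, as did all 168 of that length. Remaining genes outside the mitochondrial class and without a hydrophobic stretch had a median net charge of 0 and 3 acidic residues, against 0 and 4 for all of that class. Near the threshold of membership, the 466 genes whose lowest total input held 64 to 80 footprints had a median difference of −0.24 (5th to 95th percentile −1.28 to 0.96), and the 588 genes just below it, with 48 to 64, had a median of −0.26.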

How the data were processed

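Ribosome-protected footprints and RNA-seq were analysed in the samples described above. For the profiling files the authors removed rRNA and tRNA reads with Bowtie, aligned with TopHat to GRCh38, and deposited estimated counts per gene from uniquely placed, center-mapped footprints together with RPKM relative to all reads on transcripts. For the RNA-seq files the authors deposited counts from STAR and featureCounts. Coding-sequence estimated counts were rounded and tested in edgeR 4.0.16 (R 4.3.3) by the two-sided quasi-likelihood test over 12 libraries, with a term per lysate and a pulldown effect per location, library totals as scale and Benjamini-Hochberg adjustment over 6465 genes. Entries naming several genes (1079 of 58849) were left out. The RNA-seq fit used 12 libraries of WT, AKAP1 null and LARP4 null cells (38347615 to 100840544 counts per library) and a mean of at least 64 counts. Per-lysate values used a pseudocount of 0.5. Protein lengths came from GENCODE 44.

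Enrichment at the threshold means an adjusted p below 0.05. In data simulated at these depths 79.0% of 200 genes changed by 1 on the log2 scale were recovered, and 1.5% of 200 changed by 0.5. Members and gene lists were chosen with earlier results of these data known. Named were the 10 largest rises and 5 largest falls without overlap, the 5 most OMM-enriched genes that did not remain, the 5 largest rises outside the mitochondrial class and in each length class, the genes of the mitochondrial genome, the 2 largest rises of each list, the 5 largest mitochondrial falls and genes that the study names. Same-numbered lysates of the 2 locations did not deviate together (r = −0.0076 across 6460 genes, which are not independent), so the numbers do not pair them. Cytosol replicate 1 had its pulldown and total input sequenced in different runs. COX6A1, SYNJ2BP and TOMM5 were not tested.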

Additional observations from a re-analysis of the deposited data

Results flagged for a closer look

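OMM and cytosolic enrichment were called in opposite directions in 105 genes that were enriched at the OMM and depleted by the cytosolic ligase, and in 60 genes that were OMM-depleted and cytosol-enriched. Over all 6465 genes, 1129 (17.5%) were OMM-enriched and 3023 were OMM-depleted. By the cytosolic ligase 389 (6.02%) were depleted and 142 (2.20%) were enriched. Named genes whose mito lysates all lay above 0 and whose cytosol lysates all lay below it, with opposite calls, were RPS19 (difference 2.88), OXA1L (2.84), TMA7 (2.81), RPL23A (2.73), COX7A2 (2.29), NDUFA1 (2.23), CHCHD7 (1.91) and RPL29 (0.74). The RNA-seq of AKAP1 null cells, which the contrast does not use, gave a lower OMM enrichment than in WT for 503 of the 921 remaining genes. Over all genes tested in both assays the share was 9.78%.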

How the results depend on the processing

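With TMM scaling 1672 genes were higher, 1222 lower and 841 higher by more than 1, the median of nuclear-encoded mitochondrial genes was 0.69, 1468 OMM-enriched genes remained, and 740 of those enriched by more than 1. DESeq2 gave 989 lower, 813 higher by more than 1, a mitochondrial median of 0.68 and 743 remaining above 1. Scaling by the reads behind the RPKM gave 328 higher by more than 1 and a mitochondrial median of 0.086. The shift of the median of all genes between scalings (−0.61 to 0.00) follows from their construction. A minimum of footprints 4 times as high gave 666 higher, 1571 lower, 289 above 1, a median of 0.46, 589 remaining and 237 remaining above 1, from fewer genes. Without a replicate block for the lysates 202 genes were higher, 54 lower, 202 above 1, 89 mitochondrial genes higher, 186 remaining and 177 remaining above 1. A replicate block shared by the locations, which numbers that pair no lysates do not call for, gave 1100, 2675 and 947 remaining. Pulldowns alone gave 441 higher, 907 lower, a median of 0.24 and 173 mitochondrial genes higher, and reversed ALDH1L2, a folate enzyme, to −0.46. Leaving out each lysate gave 766 to 1163 higher, 1647 to 2617 lower (1647 without mito replicate 2), 468 to 545 above 1, 664 to 947 remaining, 400 to 438 remaining above 1, medians of 0.31 to 0.38 and 239 to 307 mitochondrial genes higher, the lone lysate being assumed to vary like the others. Among nuclear-encoded mitochondrial genes a limit of 1.5 in place of 1 left 41 short ones and 2 of middle length, a limit of 0.5 gave 49 of middle length, and wider limits of the middle length class gave 44. Ratios of the deposited RPKM had medians of 0.18 and 0.13 in the cytosol lysates. Over 1617 values of the named genes, 1512 kept direction and side of the threshold, 89 lost and 15 gained the call and 1 reversed. In the simulation, with 200 of 6465 genes changed, 1.5% of differences of 0.5 were recovered. Many more genes were called in the data, so this share does not carry over to them. There, a difference of 0.54 passed in MTCH2 (adjusted p = 0.0029, edgeR). One of 0.49 in HSP90B1 did not (adjusted p = 0.16, edgeR).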
